A study of Mus musculus with 8 samples.

Results

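The teneurins, the latrophilins and the FLRT proteins are 3 families of adhesion proteins on the surface of neurons that bind one another. Their 10 genes, Tenm1 to Tenm4, Adgrl1 to Adgrl3 and Flrt1 to Flrt3, were found by gene symbol among 13996 genes with an FPKM value, and each symbol matched 1 gene. FPKM is an RNA level scaled by transcript length and by the mapped reads of the library. The brain cortexes came from 8 male C57BL/6 mice, all 16 weeks old and each giving 1 library of rRNA-depleted RNA. Of these mice, 4 had eaten a conventional diet (normal) and 4 a diet with 60% fat by weight (high fat diet) for the last 8 weeks. The comparison asks which of the 10 RNAs differed in level between the diets.

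Teneurins are large transmembrane proteins with EGF-like and YD repeats, and latrophilins are adhesion G protein-coupled receptors. A teneurin on the axon side of a synapse can bind a latrophilin on the other side, and an FLRT protein can bind the same latrophilin through its leucine-rich repeats. FLRT proteins also bind Unc5 receptors, which steer migrating neurons and axons. Members of all 3 families are known for roles in the wiring of the cortex and the hippocampus and in the making of synapses.

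The cortex samples differed between diets in markers of other brain tissue. The summed FPKM of 8 cortical excitatory neuron markers ranged from 284 to 431 across normal mice and from 477 to 567 across high fat diet mice, and 7 of the 8 rose. Markers of single cortical layers went both ways, with 2 higher and 1 lower of 7 for the upper layers (median log2 fold change 0.11, Calb1 -1.06) and 3 higher and 2 lower of 8 for the deep layers (median 0.26, Foxp2 -0.63 and Sulf1 -0.75). The summed FPKM of the upper layer list overlapped between the diets, at 192 to 213 against 187 to 235, and that of the deep layer list was 118 to 134 against 161 to 189. The summed FPKM of the striatal neuron markers was 239 to 440 against 79.4 to 88.9, and 9 of 9 tested markers fell. Oligodendrocyte and myelin markers summed to 2110 to 3490 FPKM against 1460 to 2030, and 8 of 8 fell. Cerebellar granule cell markers were at 238 and 326 FPKM in normal mice 2 and 3, at 36.4 and 89.1 in normal mice 1 and 4, and at 38.9 to 43.8 on the high fat diet. Of 7 tested, 3 fell and 4 were not called. In normal mice 1 and 4, Cbln3 was at 1.6 and 12.5 FPKM, against 0.2 to 0.6 on the high fat diet. Fat2 was at 0.5 and 3.0 FPKM there, against 0.1 to 0.2. Etv1 of the same list overlapped, at 14.2 to 20.4 against 16.9 to 22.8 FPKM. Gabra6 was listed at 0 in high fat diet mouse 1 and at 1.7 and 12.2 FPKM in normal mice 1 and 4. Thalamic markers were also highest in normal mice 2 and 3, with sums of 131 and 118 FPKM against 44.0 to 59.9 in the other 6 mice, and Shox2 was listed at 0 in high fat diet mouse 4. Of 6 tested hippocampal neuron markers, 1 rose and 3 fell, with a median log2 fold change of -0.51. Their summed FPKM was 47.8 to 51.3 in normal mice and 38.8 to 65.2 in high fat diet mice. Wfs1, the 1 that rose, had the highest level of the list, at 17.1 to 20.3 against 21.6 to 40.3 FPKM. In 3 of the 6, every high fat diet mouse was below every normal mouse, which the sum does not show. Tissue content and diet cannot be told apart in these samples. In bulk tissue, fewer cells of a type and less RNA per cell cannot be told apart either.

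**Figure D1:**
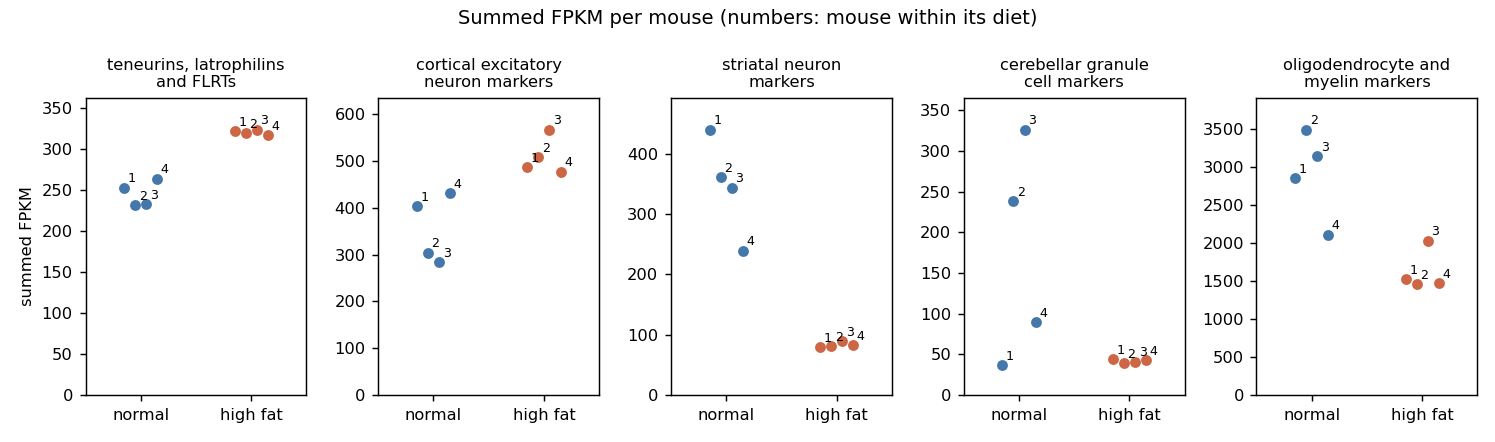
Summed FPKM per mouse (y axis, each panel from 0) of the 10 genes and of 4 marker lists, with normal and high fat diet mice on the x axis and the number of each mouse beside its point. The sum of the 10 genes was 232 to 264 FPKM in normal mice and 317 to 324 in high fat diet mice, and normal mice 2 and 3 were lowest in it, lowest in cortical markers and highest in cerebellar markers.

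On GRCm38 with the GENCODE M21 annotation, Tenm2 (ENSMUSG00000049336.16) spans 1229.3 kb at chr11:36006656-37235964 on the minus strand. Tenm1 (ENSMUSG00000016150.15) spans 901.3 kb at chrX:42527866-43429126 on the minus strand, Tenm4 (ENSMUSG00000048078.16) 739.8 kb at chr7:96171246-96911093 on the plus strand and Tenm3 (ENSMUSG00000031561.16) 616.3 kb at chr8:48227682-48843951 on the minus strand. The latrophilin genes differ in size. Adgrl3 (ENSMUSG00000037605.16) spans 805.0 kb at chr5:81020138-81825133 on the plus strand, Adgrl2 (ENSMUSG00000028184.12) 175.0 kb at chr3:148815583-148990555 on the minus strand and Adgrl1 (ENSMUSG00000013033.16) 41.9 kb at chr8:83900105-83941954 on the plus strand. The FLRT genes each span under 100 kb. Flrt2 (ENSMUSG00000047414.6) spans 93.0 kb at chr12:95692226-95785215 on the plus strand, Flrt3 (ENSMUSG00000051379.12) 20.6 kb at chr2:140650914-140671469 on the minus strand and Flrt1 (ENSMUSG00000047787.7) 13.7 kb at chr19:7092001-7105729 on the minus strand. Flrt1 lies within the span of Macrod1 and Flrt3 within that of Macrod2, each on the opposite strand with 0 shared exonic bases. Genes on the opposite strand share exonic bases with Tenm1 (Sh2d1a, 1465 bases), Tenm3 (Gm19744, 114 bases), Tenm4 (C230038L03Rik, 988 bases), Adgrl2 (Gm43573, 202 bases) and Adgrl3 (Gm16054, 1582 bases). With Adgrl1 they are Gm10644 (1107 bases), Gm44330 (143 bases) and Gm44450 (93 bases). None of these 8 has an FPKM value here. The libraries were made with a stranded kit, but the methods do not say whether the counting took strand into account.

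The RefSeq promoter table (GRCm38.p6) held 12 windows for 9 of the 10 genes. The 250 bases before the start site are printed for the 4 windows whose start lies within 100 bases of the GENCODE 5′ end of the gene, so that the sequence before genes of all 3 families can be compared. Sequences run 5′ to 3′ on the strand of the gene, and capitals mark each CG dinucleotide. The windows are chr7:96170994-96171243 (Tenm4, plus), chr8:83899848-83900097 (Adgrl1, plus), chr12:95691976-95692225 (Flrt2, plus) and chr2:140671477-140671726 (Flrt3, minus).
Tenm4: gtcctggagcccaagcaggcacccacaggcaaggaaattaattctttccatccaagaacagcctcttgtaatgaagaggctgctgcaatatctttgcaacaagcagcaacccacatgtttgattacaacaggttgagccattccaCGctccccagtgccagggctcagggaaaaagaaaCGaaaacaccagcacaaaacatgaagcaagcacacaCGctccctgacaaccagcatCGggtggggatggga
Adgrl1: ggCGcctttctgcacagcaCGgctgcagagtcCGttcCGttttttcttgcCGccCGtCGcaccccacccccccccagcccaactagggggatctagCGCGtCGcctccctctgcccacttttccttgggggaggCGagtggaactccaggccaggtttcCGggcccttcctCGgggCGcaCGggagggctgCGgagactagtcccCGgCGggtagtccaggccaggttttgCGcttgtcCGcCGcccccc
Flrt2: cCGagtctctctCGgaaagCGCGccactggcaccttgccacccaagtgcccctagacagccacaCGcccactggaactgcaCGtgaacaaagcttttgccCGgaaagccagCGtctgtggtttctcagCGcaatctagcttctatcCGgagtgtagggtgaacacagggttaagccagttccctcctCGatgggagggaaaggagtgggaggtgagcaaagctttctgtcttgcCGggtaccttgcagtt
Flrt3: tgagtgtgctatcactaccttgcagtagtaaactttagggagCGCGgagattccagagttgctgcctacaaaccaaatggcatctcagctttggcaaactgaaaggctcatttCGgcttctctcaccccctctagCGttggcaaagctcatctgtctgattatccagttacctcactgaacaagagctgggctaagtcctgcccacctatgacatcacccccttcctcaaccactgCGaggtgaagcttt
The 4 sequences differed in CG content. The Adgrl1 window held 21 CG dinucleotides, a number reached by 16.3% of 32851 RefSeq windows of the same length, and its GC content was 68.8%. The Flrt2 window held 12, the Flrt3 window 5 and the Tenm4 window 4, beside a median of 6 over all windows. Both strands were searched for 3 motifs. The E-box core CACGTG was found in the Flrt2 window, starting 171 bases before the start site, and is held by 6.0% of all windows. The letters TATAAA of a TATA box, held by 12.4% of all windows, were not found in the 4 windows shown. The cAMP response element TGACGTCA, held by 1.5% of all windows, was not found in them either.

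Of the 10 genes, 8 rose on the high fat diet and 0 fell at an adjusted p below 0.05 (limma on log2(FPKM + 0.1), adjusted over 13982 genes), where 17.7% of all genes tested rose and 15.3% fell. At an unadjusted p below 0.05 in limma, 8 were higher and 1, Tenm1, was lower, where 23.1% of all genes were higher and 21.2% lower. The 8 were Tenm2, Tenm3, Tenm4, Adgrl1, Adgrl3, Flrt1, Flrt2 and Flrt3. The change of Tenm2, Tenm3 and Flrt1 was over 1.5 times, which 4.23% of all genes reached in the same direction. In the same 8 genes every high fat diet mouse was above every normal mouse, as in 17.2% of all genes. The median log2 fold change was 0.41 over the 10 genes and 0.00 over all genes tested. All fold changes below are of the high fat diet over the normal diet on this log2 scale.

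**Figure D2:**
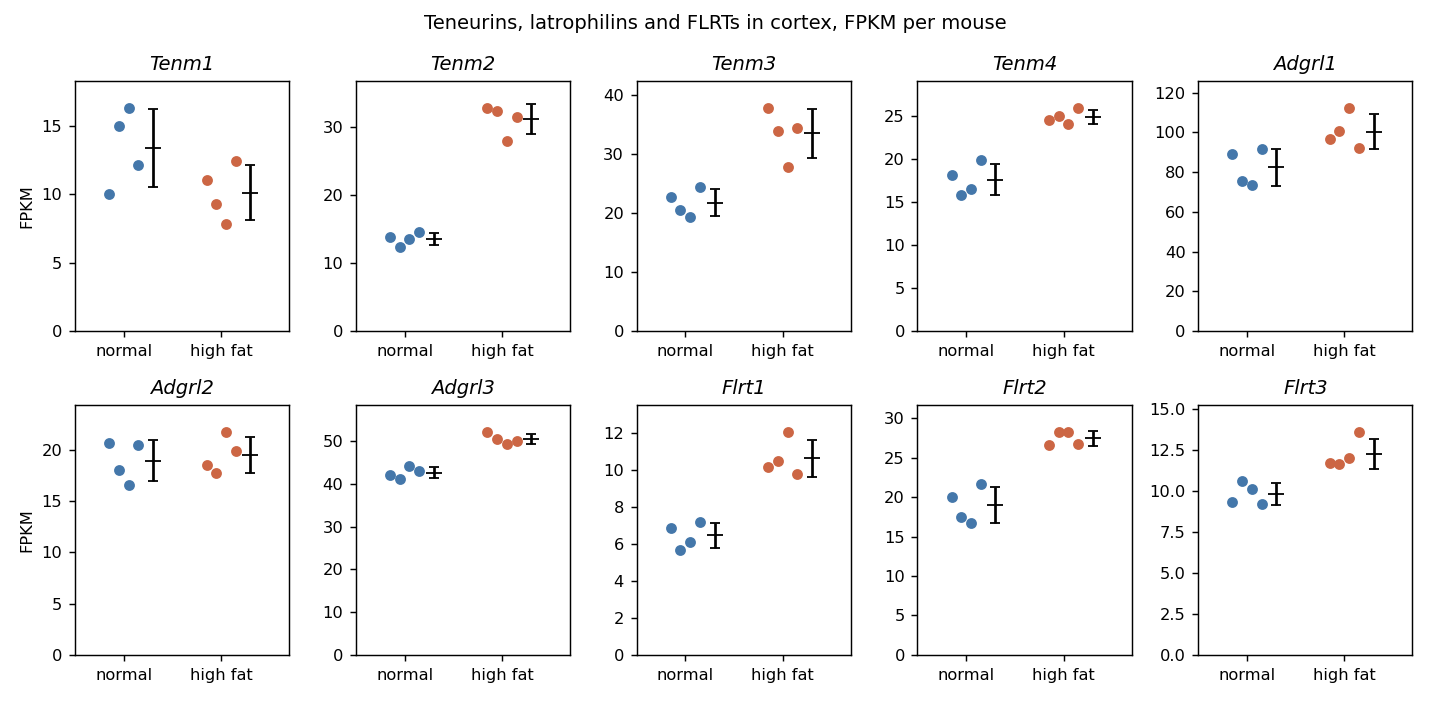
FPKM (y axis, from 0) of each of the 10 genes in the 4 normal and 4 high fat diet mice, 1 point per mouse in the order 1 to 4, with the mean and SD as bars. The diets did not overlap for Tenm2 (12.4 to 14.5 against 28.0 to 32.8) or 7 further genes, and overlapped for Tenm1 and Adgrl2.

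Among the teneurins, Tenm2, a ligand of latrophilin 1, had the largest change. Its level was 13.8, 12.4, 13.5 and 14.5 FPKM in normal mice 1 to 4 and 32.8, 32.4, 28.0 and 31.4 FPKM in high fat diet mice 1 to 4. The lowest high fat diet mouse was 13.5 FPKM above the highest normal mouse. The mean was 13.55 ± 0.87 FPKM in normal mice and 31.15 ± 2.18 FPKM in high fat diet mice (SD, n = 4), a log2 fold change of 1.19 (SE 0.07, limma adjusted p = 4.88e-05). From the highest fold change down, Tenm2 ranked 45 of 13982 genes.

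Tenm3, known for matching axons to targets in the visual system and the hippocampus, was at 22.8, 20.6, 19.3 and 24.5 FPKM in normal mice and at 37.9, 34.0, 27.8 and 34.5 FPKM in high fat diet mice. High fat diet mouse 3 was the lowest of its diet, and still 3.3 FPKM above the highest normal mouse. High fat diet mouse 3 also had the lowest summed FPKM of the hippocampal neuron markers, 38.8 against 52.9 to 65.2 in the other high fat diet mice. The markers did not all go this way. Wfs1 (21.6 against 35.0 to 40.3 FPKM), Fibcd1 and Spink8 were lowest in that mouse, while Zbtb20, Prox1 and C1ql2 were not. The part of those markers in the Tenm3 result was not tested. The mean was 21.8 ± 2.31 FPKM against 33.55 ± 4.21 FPKM (log2 fold change 0.62, SE 0.10, limma adjusted p = 0.00261). Tenm4, which also has a role in the differentiation of oligodendrocytes, was at 18.2, 15.9, 16.5 and 19.9 FPKM in normal mice and at 24.6, 25.1, 24.1 and 26.0 FPKM in high fat diet mice. The high fat diet mice were close to each other and did not overlap with the normal mice. The mean was 17.62 ± 1.80 FPKM against 24.95 ± 0.81 FPKM (log2 fold change 0.50, SE 0.07, limma adjusted p = 0.00137). The oligodendrocyte and myelin markers fell in the same mice, and their part in the Tenm4 result was not tested.

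Tenm1, the X-linked teneurin, did not pass the test. Its level was 10, 15, 16.3 and 12.1 FPKM in normal mice and 11, 9.3, 7.8 and 12.4 FPKM in high fat diet mice. The diets overlapped, and the highest values were those of normal mice 2 and 3, the mice with the most cerebellar markers. The mean was 13.35 ± 2.84 FPKM against 10.12 ± 2.00 FPKM (log2 fold change -0.39, SE 0.17, limma adjusted p = 0.111). Without normal mice 2 and 3 the log2 fold change was -0.14 (limma adjusted p = 0.599), and without normal mouse 1 it was -0.52 and passed the test (limma adjusted p = 0.0359).

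Among the latrophilins, Adgrl1, the receptor of the spider toxin alpha-latrotoxin, was the RNA with the highest level of the 10. It was at 89.2, 75.4, 73.3 and 91.4 FPKM in normal mice and at 96.4, 100.7, 112.3 and 92.2 FPKM in high fat diet mice. Normal mice 2 and 3 were the lowest, and normal mouse 4 was 0.8 FPKM below high fat diet mouse 4. The mean was 82.33 ± 9.29 FPKM against 100.4 ± 8.66 FPKM (log2 fold change 0.29, SE 0.09, limma adjusted p = 0.0309). This call did not hold without normal mice 2 and 3 (log2 fold change 0.15, limma adjusted p = 0.204). It was also lost when normal mouse 2 or 3 or high fat diet mouse 1, 2 or 3 was left out alone, with limma adjusted p up to 0.0835, and with the replicate number as a block (limma adjusted p = 0.0863).

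Adgrl3, a receptor whose human gene has been linked to attention deficit disorder, had the smallest spread of the 10 relative to its mean. It was at 42.2, 41.2, 44.3 and 43.1 FPKM in normal mice and at 52.3, 50.6, 49.4 and 50.2 FPKM in high fat diet mice. The lowest high fat diet mouse was 5.1 FPKM above the highest normal mouse. The mean was 42.7 ± 1.32 FPKM against 50.62 ± 1.22 FPKM (log2 fold change 0.25, SE 0.04, limma adjusted p = 0.00265). Adgrl2, a postsynaptic latrophilin of hippocampal neurons, was at 20.7, 18.0, 16.6 and 20.5 FPKM in normal mice and at 18.5, 17.8, 21.8 and 19.9 FPKM in high fat diet mice. The diets overlapped. The log2 fold change was 0.04 with a 95% interval of -0.15 to 0.24 (limma adjusted p = 0.732).

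Of the FLRT genes, 3 of 3 rose. Flrt1 was at 6.9, 5.7, 6.1 and 7.2 FPKM in normal mice and at 10.2, 10.5, 12.1 and 9.8 FPKM in high fat diet mice. The lowest high fat diet mouse was 2.6 FPKM above the highest normal mouse, and high fat diet mouse 3 was the highest. The mean was 6.48 ± 0.69 FPKM against 10.65 ± 1.01 FPKM (log2 fold change 0.71, SE 0.09, limma adjusted p = 0.00111). Macrod1, the gene around Flrt1 on the other strand, was at 3.98 against 4.75 FPKM (log2 fold change 0.26, limma adjusted p = 0.0465).

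Flrt2, a guidance ligand that repels migrating cortical neurons through Unc5d, was at 20, 17.5, 16.7 and 21.6 FPKM in normal mice and at 26.6, 28.2, 28.3 and 26.7 FPKM in high fat diet mice. The diets were 5.0 FPKM apart at their nearest mice. The mean was 18.95 ± 2.26 FPKM against 27.45 ± 0.93 FPKM (log2 fold change 0.54, SE 0.08, limma adjusted p = 0.00158). Flrt3, which binds latrophilins, Unc5b and Robo1, was at 9.3, 10.6, 10.1 and 9.2 FPKM in normal mice and at 11.7, 11.6, 12 and 13.6 FPKM in high fat diet mice. Here normal mice 2 and 3 were the highest of their diet, as for Tenm1. The mean was 9.80 ± 0.67 FPKM against 12.22 ± 0.93 FPKM (log2 fold change 0.32, SE 0.07, limma adjusted p = 0.00937). Macrod2, around Flrt3, was at 19.65 FPKM in both diets.

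The makeup of the teneurin family differed between the diets. Normal mice had a summed teneurin FPKM of 66.3 ± 3.19 and high fat diet mice one of 99.8 ± 8.36, and Tenm2 made up 20.4 ± 0.78% of the first and 31.3 ± 0.95% of the second (SD, n = 4). The share of Tenm1 was 20.2 ± 4.66% against 10.1 ± 1.35%. Those of Tenm3 (32.8% against 33.5%) and Tenm4 (26.5% against 25.1%) overlapped between the diets. Summed FLRT FPKM was 35.2 ± 2.32 against 50.3 ± 1.6, with Flrt2 at 53.7% against 54.6% of it. Summed latrophilin FPKM was 144.0 ± 11.12 against 170.5 ± 9.11, with Adgrl2 at 13.1% against 11.4%.

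**Figure D3:**
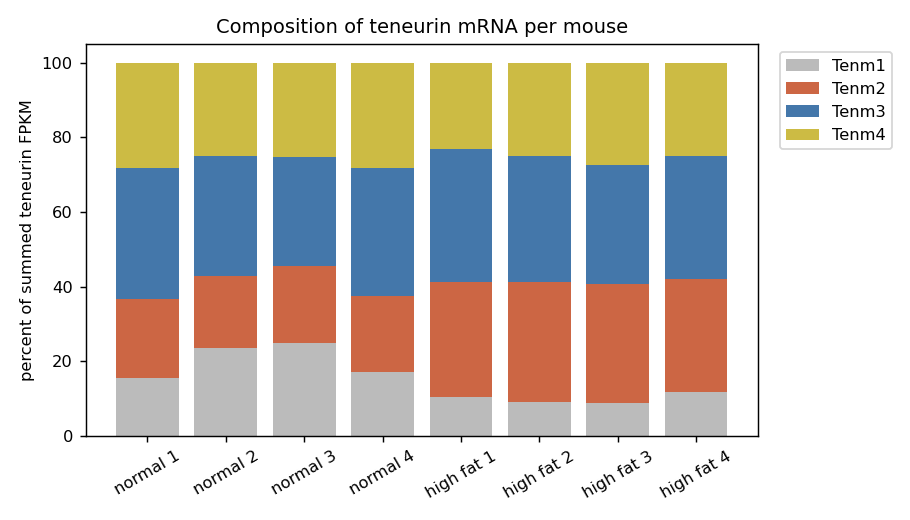
Percent of summed teneurin FPKM (y axis) taken by each of the 4 teneurins in each mouse (x axis, normal 1 to 4 and high fat 1 to 4). Tenm2 took 19.4% to 21.3% in normal mice and 30.1% to 32.1% in high fat diet mice, and Tenm1 took 15.4% to 24.8% against 8.9% to 11.9%.

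The change was compared between members of each family through their log2 ratio in each mouse, over 12 pairs, with exact permutation of the mice between diets (two-sided, 70 assignments). For 7 pairs the diets did not overlap, which gave the smallest p possible (0.0286, adjusted p = 0.049 over the 12 pairs). Tenm2 rose more than Tenm3 by 0.58 and more than Tenm4 by 0.69 on the log2 scale. The ratio of Tenm1 to Tenm2 fell by 1.59, that of Tenm1 to Tenm3 by 1.01 and that of Tenm1 to Tenm4 by 0.90. Adgrl1 changed more than Adgrl2 by 0.25 and Flrt1 more than Flrt2 by 0.17. The other 5 pairs did not pass, namely Tenm3 and Tenm4 (0.11, exact permutation adjusted p = 0.312), Adgrl1 and Adgrl3 (0.04, 0.657), Adgrl2 and Adgrl3 (-0.20, 0.19), Flrt1 and Flrt3 (0.40, 0.129) and Flrt2 and Flrt3 (0.22, 0.24). An adjusted p below 0.05 required at least 7 of the 12 pairs to share this smallest p, so the 7 calls depend on each other. With 1 added in place of 0.1, Flrt1 and Flrt2 no longer had it (exact permutation adjusted p = 0.129). The teneurin pairs that had passed, and Adgrl1 and Adgrl2, were then at 0.0571, so 0 of 12 pairs passed. When any mouse was left out, 0 of 12 passed too. Fewer mice also give fewer assignments, so this loss cannot show that a difference rested on 1 mouse. With 1 mouse left out, the difference was -1.48 to -1.72 for Tenm1 and Tenm2 and 0.66 to 0.72 for Tenm2 and Tenm4. For Adgrl1 and Adgrl2 it was 0.20 to 0.30, and for Flrt1 and Flrt2 0.12 to 0.20.

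The order of the 10 levels was similar at its top and differed below. In both diets Adgrl1 was highest, Adgrl3 next and Tenm3 after it, and the ranges of Adgrl1, Adgrl3 and Tenm3 were separate. In normal mice Adgrl2, Flrt2 and Tenm4 followed, with ranges that overlapped between neighbours, then Tenm2, Tenm1 and Flrt3, which overlapped between neighbours too, and Flrt1 was lowest and separate from Flrt3. In high fat diet mice Tenm2 came after Tenm3, overlapping with Tenm3 above it and Flrt2 below it. Tenm4 and Adgrl2 followed with separate ranges, and Flrt3, Flrt1 and Tenm1 were lowest, with ranges that overlapped between neighbours.

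The calls were recomputed with the tissue markers in view. Without normal mice 2 and 3, a comparison chosen after the data were seen, 7 of the 10 genes rose, with Adgrl1 lost, and 1, Tenm2, did so by over 1.5 times. In that fit 2743 of all genes were called in place of 4626, with 10.9% of all genes higher, 8.69% lower and 2.61% higher by over 1.5 times. With the mean log2 level of the cerebellar markers as a covariate over all 8 mice, Tenm2 was the 1 gene that passed (log2 fold change 1.11, limma adjusted p = 0.00625), while the number of genes called in the whole fit went from 4626 to 550, with 2.07% higher and 1.86% lower. In that fit Flrt3 was at 0.47 (limma adjusted p = 0.0526), Adgrl3 at 0.26 (0.0719), Flrt1 at 0.50 (0.0818), Tenm4 at 0.35 (0.103), Flrt2 at 0.31 (0.124) and Tenm3 at 0.42 (0.162). Adgrl1 was at 0.03, and Tenm1 and Adgrl2 changed sign, to 0.18 and -0.20. At an unadjusted p below 0.05 in limma, 7 of the 10 genes were higher and 0 lower in this fit. Of all 13982 genes, 1764 were higher and 1510 lower at that threshold. With the striatal markers as the covariate, which separate the diets completely, 0 of the 10 genes and 0 of all genes were called by limma, and Tenm2 was at 0.94, Flrt3 at 0.49, Tenm3 at 0.39, Flrt1 at 0.35, Adgrl3 at 0.15, Flrt2 at 0.14, Tenm4 at 0.08, Adgrl1 at 0.03, Adgrl2 at 0.01 and Tenm1 at -0.68. At an unadjusted p below 0.05, 1 of the 10 and 293 of all 13982 genes passed in that fit.

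**Figure D4:**
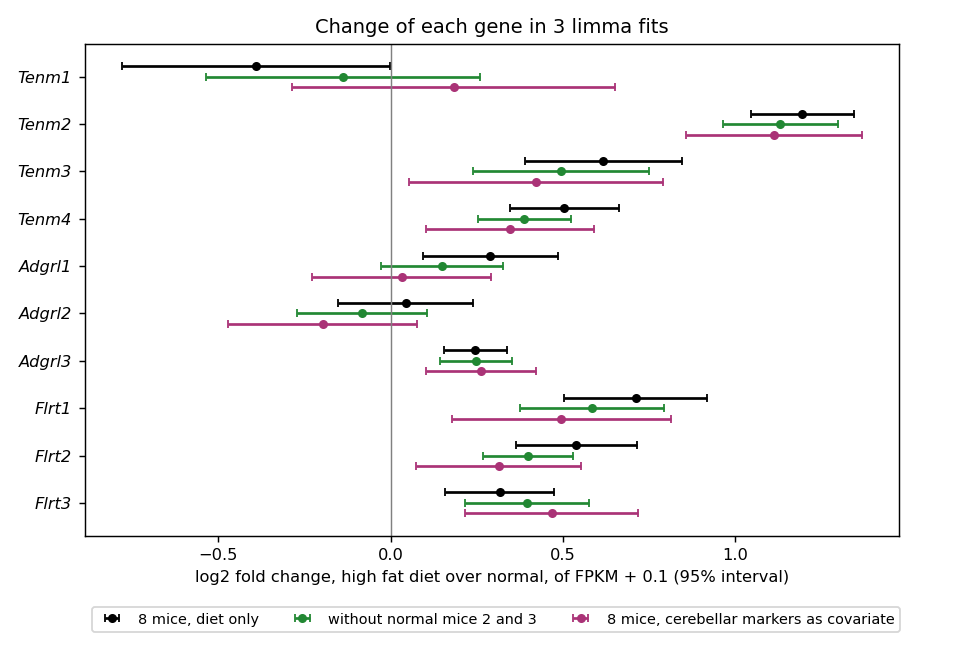
Log2 fold change of each gene (x axis, points, with 95% intervals as bars; genes on the y axis) in 3 limma fits, with all 8 mice and diet alone, without normal mice 2 and 3, and with the cerebellar markers as a covariate. Tenm2 stayed between 1.11 and 1.19 in all 3, while Adgrl1, Adgrl2 and Tenm1 moved towards or across 0. From the first fit to the third, Flrt1 went from 0.71 to 0.50, Tenm3 from 0.62 to 0.42, Flrt2 from 0.54 to 0.31 and Tenm4 from 0.50 to 0.35. Adgrl3 and Flrt3 did not move towards 0.

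As a description chosen after the data were seen, each level was also set against the mean log2 level of the 8 cortical excitatory neuron markers, which was 0.72 higher on the high fat diet. This is 1 choice of reference, since the markers of single cortical layers went both ways. Relative to that mean, Tenm2 was 0.47 higher on the high fat diet, Flrt1 was at -0.01 and Tenm3 at -0.11, and each overlapped between the diets. Flrt2 (-0.18), Tenm4 (-0.22) and Flrt3 (-0.41) overlapped as well. Adgrl1 (-0.43), Adgrl3 (-0.48), Adgrl2 (-0.68) and Tenm1 (-1.12) were lower relative to the markers in every high fat diet mouse than in every normal mouse. The part of tissue content in the changes of the 10 genes was not tested beyond these values.

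Of 18 binding and signalling partners of the 3 families, 9 rose and 3 fell, with a median log2 fold change of 0.24, where 17.7% of all genes rose and 15.3% fell, so the share that fell was close to that of all genes. Among the Unc5 receptors of the FLRT proteins, Unc5a went from 15.78 ± 1.68 to 27.68 ± 2.34 FPKM (log2 fold change 0.81, limma adjusted p = 0.000602) and Unc5d from 8.55 ± 1.35 to 11.88 ± 1.5 FPKM (0.47, 0.0207), while Unc5b fell by 0.70 from 9.43 ± 2.05 to 5.75 ± 1.23 FPKM (0.0141). Unc5c did not pass (-0.09). The scaffold genes of the excitatory synapse Shank1, from 16.02 ± 3.11 to 28.0 ± 1.80 FPKM, and Shank2, from 19.58 ± 1.26 to 29.62 ± 2.39 FPKM, rose by 0.82 and 0.59. Nrxn2 and Nrxn3, which encode presynaptic partners of latrophilins, rose by 0.37 and 0.29. Robo1, a Slit receptor that binds Flrt3, had a log2 fold change of -0.20 (limma adjusted p = 0.0379). The G protein subunit genes of the list went different ways. Gna12 had a log2 fold change of -0.23 (limma adjusted p = 0.0285), Gnao1 one of 0.32 (0.00321) and Gna13 one of -0.02 (0.727).

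Of 14 other adhesion G protein-coupled receptors tested, 6 rose and 0 fell, with a median of 0.27, beside the same 17.7% and 15.3% of all genes. At an unadjusted p below 0.05 in limma, 7 were higher and 0 lower, beside the 23.1% and 21.2% of all genes given above. The brain-enriched receptor Adgra1 went from 13.35 ± 0.76 to 22.85 ± 1.63 FPKM (log2 fold change 0.77, limma adjusted p = 0.000193) and the cadherin-type receptor Celsr2 from 21.02 ± 3.25 to 34.08 ± 1.35 FPKM (0.71, 0.0012). Adgrd1 also passed, at 0.70 ± 0.24 against 1.32 ± 0.25 FPKM, a level near the rounding step of 0.1 FPKM. Of 26 other leucine-rich repeat adhesion genes tested, 13 rose and 1, Lrrn1, fell, with a median of 0.18. The largest rises there were those of Lrfn2, a synaptic adhesion gene (6.68 ± 0.80 to 10.88 ± 0.29 FPKM, 0.70), and Lingo1, a part of the Nogo receptor complex (60.55 ± 10.16 to 97.88 ± 12.63 FPKM, 0.70). Without normal mice 2 and 3, 18 of the 58 partners and related genes were called in place of 32, 17 higher and 1 lower. In that fit 10.9% of all genes were higher and 8.69% lower. With the cerebellar covariate 4 were called, 3 higher and 1 lower, beside 2.07% and 1.86% of all genes.

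Tenm1 to Tenm4 and Adgrl3 are among 208 tested mRNAs with a gene span of 500 kb or more, of which 33.7% rose and 13.0% fell, against 16.2% and 16.8% of 12302 shorter ones. The median log2 fold change was 0.11 for the long genes and -0.02 for the others. After a loess correction of each mouse for gene span, 8 of the 10 genes were still called, and 2 in place of 3 by over 1.5 times.

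For the RNA with the highest level of each family, the genes with the most similar values over the 8 mice were taken by Pearson r of log2(FPKM + 0.1), as a description over 2 diets. Closest to Tenm3 were Rspo2 (r = 0.996), a Wnt pathway activator that went from 3.82 to 8.12 FPKM, Zfp318 (0.991) and Rufy2 (0.991). Adgrl1 was followed most closely by Epop (0.995), Mical2 (0.995) and Grin1 (0.994), the obligate subunit of NMDA receptors, at 77.65 against 90.12 FPKM. Nearest to Flrt2 were RP23-242J3.3 (0.998), Asap1 (0.997) and Aak1 (0.997), a kinase of clathrin-mediated endocytosis, at 39.85 against 55.22 FPKM. After subtraction of the diet means, r of these 9 genes lay between 0.95 and 0.99. They were picked by r over the same 8 mice, so this range is partly set by that choice.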

How the data were processed

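RNA from 8 cortexes (4 per diet) was sequenced, 1 library per mouse, with RNA integrity above 9 throughout. FPKM was calculated by the authors with Cuffnorm on GENCODE M17, from reads trimmed in Trimmomatic and placed on mm10 by STAR. No versions of these tools were given. The deposited FPKM values are rounded to 0.1 and sum to 562431 to 639142 per mouse, and since depth is not part of them no counting error can be given. No value column was left unused (0).

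The FPKM values were analysed as log2(FPKM + 0.1) in limma 3.58.1 (R 4.3.3), two-sided and with a variance trend. P-values were adjusted by Benjamini-Hochberg over 13982 genes, those without a 0 whose mean FPKM reached 1. The added constant understates changes of low genes. The fit was tested on simulated data over 13982 genes. Ratios of members were compared by exact permutation. Tables were made with Python 3.11.15 and pandas 2.3.3. Loci came from GENCODE M21, promoters from RefSeq.

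The genes, the lists and the rule for naming genes were chosen with earlier results of these data known, so the members are described beside the share of all genes. The rule named all 10 genes, the genes of each related list past an adjusted p of 0.05 and 1.5 times, and 3 genes similar to 1 member per family. Further genes of the partner list (Nrxn2, Nrxn3, Unc5c, Unc5d, Robo1, Gna12, Gnao1 and Gna13), Lrrn1, Macrod1 and Macrod2 were named after their values were seen. So were the markers Calb1, Foxp2, Sulf1, Cbln3, Fat2, Etv1, Wfs1, Fibcd1, Spink8, Zbtb20, Prox1 and C1ql2. The printed promoter windows were also chosen after they were seen. The values of 1 gene of the partner list are not reported here. Marker lists share Cux2, Fezf2 and Etv1. The alternatives were other added constants, filters and scalings, a fit without variance trend, replicate blocks, marker covariates, a gene span correction and each mouse left out. The labels state no pairing of mice, and same-numbered mice did not deviate together, so the main fit did not pair them. Whether same-numbered mice shared handling was not tested.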

Additional observations from a re-analysis of the deposited data

How the results depend on the processing

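The number of the 10 genes called was 8 under added constants of 1 and 0.01, no filter, a mean FPKM of at least 5, median-ratio rescaling, quantile normalization and the gene span correction. It was 7 without a variance trend (Adgrl1 lost, limma adjusted p = 0.0508) and without normal mice 2 and 3, and 7 to 9 with 1 mouse left out. Genes over 1.5 times numbered 2 to 4 with 1 mouse left out and 1 without normal mice 2 and 3. Partner and related genes called numbered 22 to 32 with 1 mouse left out, against 32 with all mice, and 18 without normal mice 2 and 3. With the cerebellar covariate these 3 counts were 1, 1 and 4, and with the striatal covariate 0, 0 and 0. Of all genes, 3671 of 9638 were called at a mean FPKM of at least 5. The number was 4528 to 4657 under the added constants, no filter, the scalings and the gene span correction, and 4269 without a variance trend. It was 3295 to 4619 with 1 mouse left out and 2743 without normal mice 2 and 3. With the cerebellar and striatal covariates it was 550 and 0. Of the 12 pairs 7 passed, and 0 with an added constant of 1 or with any mouse left out (0 to 0).

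With the replicate number as a block, 7 of the 10 genes, 3 over 1.5 times, 25 partner and related genes and 3390 of all genes were called, against 4626 without it. Same-numbered mice correlated at -0.038, -0.028, -0.109 and -0.072 in their deviations, and 0 of 4 correlated best with their own number.

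With 1 mouse left out, Adgrl2 lay between -0.02 and 0.09 and the difference between Adgrl1 and Adgrl3 between -0.03 and 0.09. The sign changed for Adgrl2 (without normal mouse 3 -0.02, without high fat diet mouse 3 -0.01, without normal mice 2 and 3 -0.08, cerebellar covariate -0.20) and Tenm1 (cerebellar covariate 0.18). It also changed for the pair Adgrl1 and Adgrl3 (-0.03 without normal mouse 3, -0.02 without high fat diet mouse 3). The cause was not tested. The comparison without normal mice 2 and 3 was chosen after seeing the data.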
